A study of Bos taurus and Cervus elaphus with 24 samples.

Results

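The mitochondrial ribosomal protein genes were followed in blood from deer and cattle of 2 breeds, both at peak lactation and in the dry period. Members were all genes whose name on the array begins with MRPL or MRPS followed by a number, and each gene was represented by its probe with the highest mean Cy5 intensity. The rule found 75 genes, with 142 probes, among 25232 gene names and 43653 probes. Of these genes, 46 carry large subunit names (MRPL) and 29 carry small subunit names (MRPS). The labels give 6 groups of 4 arrays: deer (Cervus elaphus), Holstein-Friesian cattle (HF) and Polish Red cattle (PR), each at peak lactation and in the dry period, when no milk is made. The series text says that each animal gave blood in both states. All 24 arrays carried the animal's RNA in Cy5 and a common reference pooled from 20 cattle outside the groups in Cy3. Each value below is therefore a log2 ratio of an animal to that cattle pool, or a difference of such ratios. The deer RNA was measured with cattle probes against cattle RNA, so in deer a low ratio can mean little transcript or a probe that binds deer RNA poorly, and the array cannot tell these apart. Blood was collected whole into tubes that preserve RNA, although the labels call the material peripheral blood nuclear cells, and in such a mixture fewer cells of a type and less RNA per cell cannot be told apart.

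Mitochondria have their own ribosomes, which make the few respiratory chain subunits that mitochondrial DNA still encodes. The ribosomal proteins themselves are encoded in the nucleus, made in the cytosol and imported, while the ribosomal RNAs come from mitochondrial DNA. The small subunit reads the messenger RNA and the large subunit joins the amino acids. Many of the proteins have bacterial counterparts, and others occur only in mitochondria. Lymphocytes and monocytes carry active mitochondria, neutrophils carry few, and mature mammalian red cells carry none.

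By textbook assignment, 29 of the 46 MRPL genes and 18 of the 29 MRPS genes have a bacterial counterpart. The other 17 and 11 occur in mitochondria only. The probes lay on 26 chromosomes of the cattle assembly UMD 3.1, with 9 genes on chromosome 11 and 7 on chromosome 19. One probe represented 30 genes, and 45 genes had more. No member was saturated or missing on any array. All 75 were well above background on all 16 cattle arrays. In deer, MRPL3 was above background on 2 of 4 arrays in each state and MRPL32 on 1 of 4 in each state. MRPS10 was above background on 0 of 4 deer arrays at peak lactation and on 4 of 4 in the dry period.

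One array was far brighter than the rest: PR dry replicate 1 had a median Cy5 intensity of 2036, against 108 to 254 on the other 23 arrays. It also had 703 spots marked as outliers, where the others had at most 75, and 43635 probes passed the background test on it, against 30835 to 39110. Its spike-in correlation was 0.33. That of the arrays of HF animals 2 and 3 was 0.17 to 0.40, and that of all remaining arrays 0.899 to 0.997. Deer lactation replicates 2 and 4 also stood apart in the spread of the members' log2 ratios. When the 75 values of an array were regressed on their mean over the deer dry arrays, the slope was 0.615 for deer lactation replicate 2 and 0.839 for replicate 4. It was 1.04 and 1.06 for deer lactation replicates 1 and 3, and 0.950 to 1.04 for the deer dry arrays, each set against the other 3. Ratios far from 0 were thus nearer to the cattle reference on those 2 arrays. Defining markers of neutrophils, monocytes, T cells, B cells and cytotoxic cells were above background on all arrays. Of the milk and epithelial markers, LALBA was not above background in deer at peak lactation.

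The median over the 75 genes gives the level of the whole set on an array. At peak lactation it was -0.21, -0.08, -0.33 and -0.25 in deer animals 1 to 4, and in the dry period -0.49, -0.48, -0.28 and -0.59. In HF it was 0.11, 0.05, 0.22 and -0.05 at peak lactation, and 0.01, 0.20, -0.0032 and 0.09 in the dry period. In PR it was -0.0034, 0.06, 0.15 and 0.02 at peak lactation, and -0.38, 0.08, -0.15 and -0.04 in the dry period. The lowest cattle value belonged to PR dry replicate 1, and the deer values lay below those of all cattle arrays other than PR dry replicates 1 and 3. The group means were -0.22 ± 0.11 in deer at peak lactation and -0.46 ± 0.13 in deer in the dry period (SD, n = 4 each). In HF they were 0.08 ± 0.11 at peak lactation and 0.07 ± 0.09 in the dry period. In PR they were 0.06 ± 0.07 at peak lactation and -0.12 ± 0.19 in the dry period, or -0.04 ± 0.11 (n = 3) without replicate 1.

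**Figure D1:**
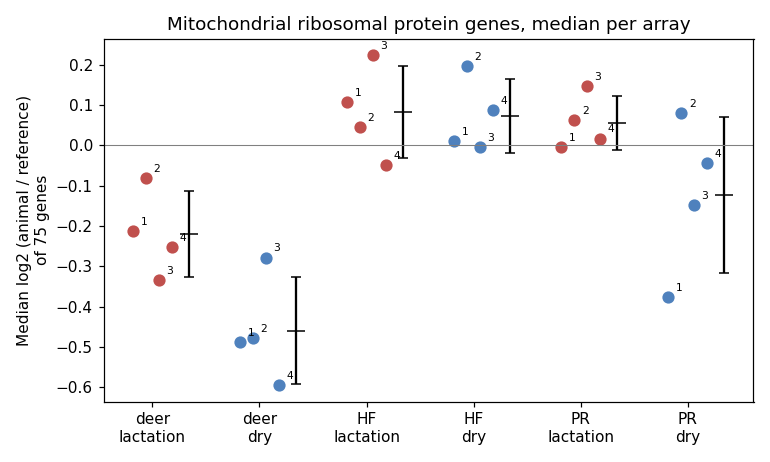
Median log2 ratio of the animal to the cattle reference over the 75 genes, for every array (y axis, log2) by group (x axis). Small numbers are the animals, horizontal bars the group means and vertical bars the SD. The deer group means lie lowest. PR dry replicate 1 at -0.38 is the lowest of the cattle arrays and lies below several deer arrays.

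Within cattle the genes moved little between groups. The range of a gene's 4 cattle group means had a median of 0.32, with a lowest value of 0.08 and a highest of 0.76. PR in the dry period was the lowest of the 4 groups for 53 of 75 genes and the highest for 2. Without PR dry replicate 1, left out after the data were seen, the median range was 0.24 and PR in the dry period was the lowest group for 39 genes and the highest for 4. The same ranges and shares over all probes are not given here. Whether these genes differ from other probes in this cannot be said. The widest ranges belonged to MRPS33 (0.76), MRPS27 (0.71), MRPS15 (0.71), MRPL47 (0.66) and MRPS6 (0.64). Without PR dry replicate 1 the ranges of these genes were 0.29, 0.45, 0.62, 0.45 and 0.57, and only MRPS15 and MRPS6 were still among the 5 widest. MRPS33 is found only in mitochondrial ribosomes, MRPL47 is the counterpart of bacterial L29, and MRPS27 is a pentatricopeptide repeat protein of the small subunit. The narrowest ranges belonged to MRPL28 (0.08), MRPL1 (0.11) and MRPL14 (0.11), which all have bacterial counterparts.

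In PR, 68 of 75 genes had a higher mean at peak lactation than in the dry period and 7 a lower one, where 56.1% of all probes were higher, but no gene passed the test. The median difference over the set was 0.18 on the log2 scale, against 0.02 over all 32590 probes tested. No gene was called at an adjusted p under 0.05 (limma, Benjamini-Hochberg over all probes tested), and the share of all probes called was 0%. At an unadjusted p under 0.05, 10 genes were higher and 0 lower, where 4.21% of all probes were higher and 1.37% lower. The animals differed. The median change was 0.35, -0.043, 0.26 and 0.11 in animals 1 to 4, with 61, 31, 68 and 49 of 75 genes higher at peak lactation. The dry array of animal 1 is the one that stood apart. Without it the median difference was 0.08, 58 of 75 genes were higher, and 0 genes had an unadjusted p under 0.05. With the channels taken apart, the median was 0.34 in Cy5 alone and 0.19 in the Cy3 reference alone. The PR dry arrays lay at positions 1, 3, 1 and 1 of their slides and the lactation arrays at 3, 2, 3 and 4. A part of position in these values was not tested.

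MRPL27, the counterpart of a bacterial protein next to the site where peptide bonds form, had the smallest p. Its log2 ratios were -0.06, -0.10, 0.25 and -0.02 in PR at peak lactation, against -0.64, -0.16, -0.33 and -0.13 in PR in the dry period. All lactation values lay above all dry values, which held for 1 of the 75 genes and for 0.96% of all probes. The difference was 0.33 (SE 0.12, unadjusted p = 0.0122, adjusted p = 0.847), or 0.22 without PR dry replicate 1. MRPS33 read 0.05, 0.46, 0.39 and 0.22 in PR at peak lactation, against -1.89, 0.38, -0.28 and -0.15 in the dry period. It was higher at peak lactation in 4 of 4 animals, but the groups overlapped and 1 dry array was far below the rest. Its difference of 0.76 (SE 0.29, adjusted p = 0.847) became 0.29 without that array. Its other 3 probes differed by 0.61, 0.40 and -0.03, so the gene's probes disagreed in sign. MRPL13, which has a bacterial counterpart in the large subunit, read 0.05, 0.09, 0.28 and 0.10 at peak lactation, against -0.38, 0.07, -0.34 and -0.20 in the dry period. It was higher in 4 of 4 animals, by 0.34 on average (SE 0.13, adjusted p = 0.847), and by 0.29 without the array that stood apart. MRPL17 (0.53), MRPS27 (0.46) and MRPL55 (0.37) came next by moderated t, the difference over its error, and without PR dry replicate 1 their differences were 0.27, 0.20 and 0.12. The other probe of MRPL17 differed by 0.41, and that of MRPS27 by -0.09. With the smallest moderated t stood MRPL44 (-0.09), MRPL15 (-0.07), MRPS10 (-0.04) and MRPL28 (-0.01). The other probes of these genes differed by 0.01, 0.33, -0.01 and 0.03. In PR the probes of 20 of the 44 genes with more than 1 probe tested differed in sign.

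In HF the set was split. Of 75 genes, 31 had a higher mean at peak lactation and 44 a lower one, where 47.2% of all probes were higher. The median difference was -0.01, as it was over all 33101 probes tested. No gene was called, where 0.00906% of all probes were, and 0 genes had an unadjusted p under 0.05, where 4.83% of probes did on the higher side and 2.83% on the lower. The even split hid animals that went opposite ways. The median change was 0.09, -0.17, 0.17 and -0.15 in animals 1 to 4, with 57, 14, 65 and 15 of 75 genes higher at peak lactation. Both arrays of an HF animal shared a slide, and the spike-in correlation of the arrays of animals 2 and 3 was 0.17 to 0.40. All HF dry arrays lay at position 1 of their slides and the lactation arrays at positions 3, 3, 3 and 4. State and position cannot be told apart within HF. A part of slide, spike-in quality or position in these values was not tested.

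MRPS15, the counterpart of a bacterial small subunit protein, was higher at peak lactation in 4 of 4 HF animals. It read -0.42, 0.39, 0.96 and -0.55 at peak lactation, against -0.58, -0.26, 0.17 and -0.99 in the dry period. The animals differed more than the states, and the groups overlapped (difference 0.51, SE 0.32, adjusted p = 0.805). MRPL38, a large subunit protein of mitochondria only, had the smallest p in this comparison. It read 0.11, -0.37, 0.26 and -0.12 at peak lactation, against -0.19, -0.20, -0.34 and -0.48 in the dry period (difference 0.27, adjusted p = 0.802). It was higher in 3 of 4 animals, and the groups overlapped. By moderated t, MRPL24, MRPL15, MRPL12 and MRPL9 followed with differences of 0.17, 0.15, 0.15 and 0.09. The smallest moderated t belonged to MRPL32 (-0.21), MRPS18C (-0.20), MRPS31 (-0.14) and MRPS23 (-0.14). In HF the probes of 14 of the 44 genes with more than 1 probe tested differed in sign, MRPS31 among them.

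In deer, 64 of the 73 genes tested had a higher mean at peak lactation than in the dry period and 9 a lower one, where 52.4% of all probes were higher, and again none passed the test. The median difference was 0.18, against 0.01 over all 33389 probes tested. It was 0.08 with 55 of 73 genes higher in Cy5 alone, and -0.10 with 10 of 73 higher in the Cy3 reference alone. The reference holds no deer RNA, but single-channel values were taken after a normalization that uses both channels. No gene was called, where 0.00599% of all probes were. At an unadjusted p under 0.05, 14 genes were higher and 0 lower, where 5.49% of all probes were higher and 3.55% lower. The median change was 0.22, 0.29, -0.0054 and 0.28 in animals 1 to 4, with 59, 60, 37 and 64 of 75 genes higher. The lactation arrays of animals 2 and 4 are those on which ratios lay nearer to the cattle reference. Without both, the median difference was 0.14 and 57 of 73 genes were higher. With the spread of all arrays set equal, it was 0.09 and 42 of 73 were higher. Deer dry replicates 1, 2 and 4 shared a slide without lactation arrays, and lactation replicates 2 and 3 a slide without dry arrays. Only dry replicate 3 shared its slide with lactation arrays, those of replicates 1 and 4. State and slide can thus hardly be told apart in deer.

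MRPL10 sits at the base of the stalk on which translation factors dock, and it had the smallest p of the set. Its probe lies at chr19:39251491-39251550 on the plus strand. It read 0.46, 0.60, 0.51 and 0.79 in deer at peak lactation, against 0.08, 0.19, 0.34 and 0.35 in deer in the dry period. All lactation values lay above all dry values, which held for 5 of the 73 genes and for 2.31% of all probes. The difference was 0.35 (SE 0.09, unadjusted p = 0.00116, adjusted p = 0.454), and it was higher in 4 of 4 animals. Its values lay above the cattle reference on all 8 deer arrays, and the difference was 0.24 without deer lactation replicates 2 and 4. The gene's other probe differed by 0.19. MRPL43, a large subunit protein of mitochondria only, read 0.58, 0.66, 0.61 and 0.59 at peak lactation, against 0.30, 0.43, 0.42 and 0.33 in the dry period. The groups did not overlap, and the lactation values spanned less than 0.1 (difference 0.24, SE 0.09, adjusted p = 0.474). The difference was 0.23 without both arrays and 0.46 with equal spread. Over the gene's 4 probes the difference ran from 0.07 to 0.24.

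MRPS14, which has a bacterial counterpart in the small subunit, lay below the reference. It read -0.23, -0.39, -0.69 and -0.51 in deer at peak lactation, against -0.85, -0.84, -0.62 and -1.22 in the dry period. Animal 3 went the other way, so the groups overlapped (difference 0.42, SE 0.13, adjusted p = 0.454). The difference was 0.42 without deer lactation replicates 2 and 4 and 0.04 with equal spread. MRPL44, which has a fold related to RNase III, differed by 0.39 (adjusted p = 0.468), and by 0.14 without both arrays. MRPL11 differed by 0.41 (adjusted p = 0.478) and by -0.44 with equal spread, so its direction depended on that scaling. MRPL13 differed by 0.37 (adjusted p = 0.476), its groups did not overlap, and the value with equal spread was 0.06. The smallest moderated t belonged to MRPL14 (-0.20), MRPS25 (-0.19), MRPS9 (-0.08) and MRPL12 (-0.08), all above the reference in deer. Of these, MRPS25 was lower in 4 of 4 animals. With equal spread all 4 had positive differences. In deer the probes of 11 of the 43 genes with more than 1 probe tested differed in sign, MRPL14, MRPS9 and MRPL12 among them.

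**Figure D2:**
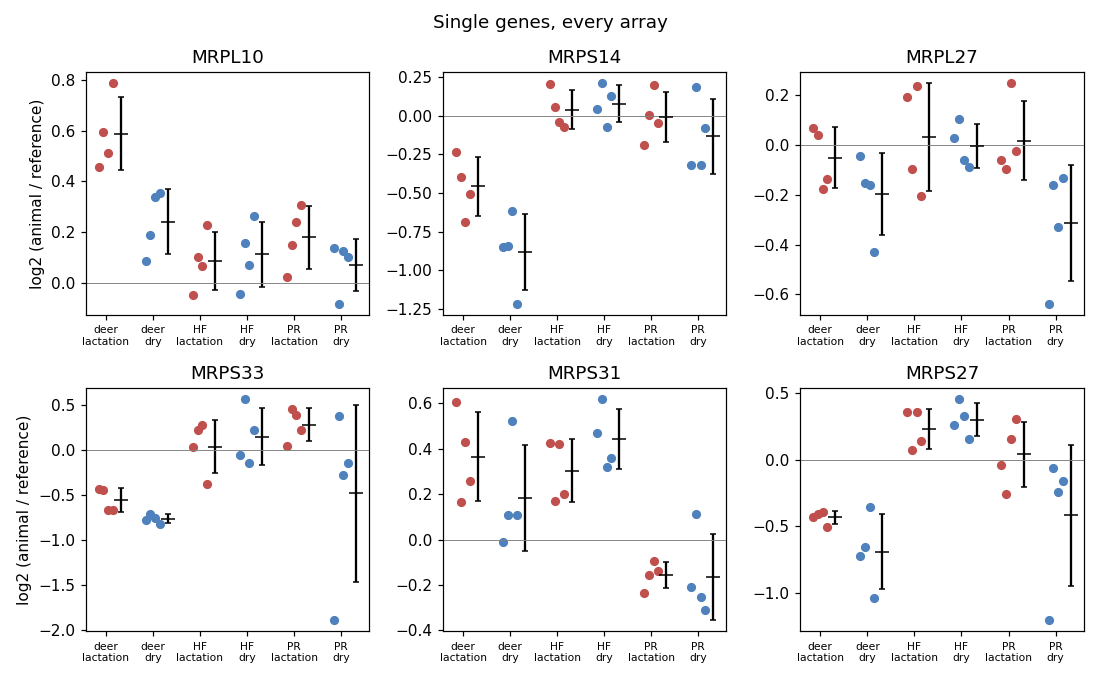
Log2 ratio of the animal to the cattle reference (y axis) on every array for 6 genes, by group (x axis), with horizontal bars for the means and vertical bars for the SD of 4 arrays. Deer lactation lies above deer dry for MRPL10, MRPS33 has 1 PR dry array at -1.89, and for MRPS31 all HF values lie above all PR values in both states.

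The authors' deposited table of transcripts that differed between the states in deer held 576 probes, where the array has 43653. It held 3 of the 142 member probes, for MRPL10, MRPL43 and MRPS10. Their deposited HF and PR tables, of 437 and 158 probes, held 0. Whether these counts differ from the share of all probes was not tested. For MRPL10 the authors' deposited table gave 0.51, 0.58, 0.55 and 0.84 in deer at peak lactation, against 0.16, 0.22, 0.41 and 0.38 in the dry period. For MRPS10 the authors' deposited table gave -5.997, -5.83, -6.41 and -6.47 in deer at peak lactation, against -5.85, -5.00, -5.08 and -5.74 in the dry period. The MRPS10 probe was not well above background on any deer lactation array, so its lactation level there is only a bound. In the ratios used elsewhere here the mean of the same probe went the other way. It was -2.77 in deer at peak lactation and -3.34 in the dry period (difference 0.57, adjusted p = 0.583). MRPS10 is thus among the 64 genes with a higher mean. Only lactation replicates 2 and 4, on which ratios lay nearer to the cattle reference, were higher, at -1.40 and -2.47. Lactation replicates 1 and 3 read -3.52 and -3.69, against -3.49, -3.24, -3.38 and -3.26 on the dry arrays. The gene's other probe differed by 0.51 (adjusted p = 0.454).

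**Figure D3:**
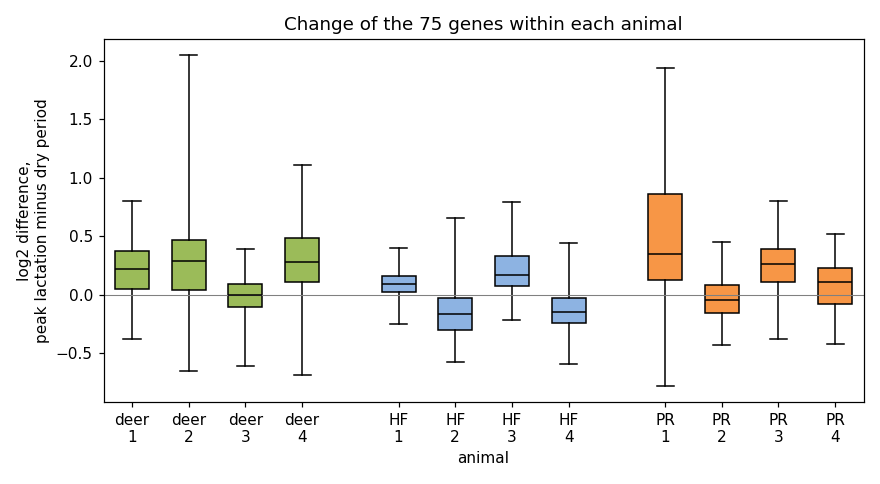
Change of each of the 75 genes from the dry period to peak lactation within each animal (y axis, log2 difference of lactation minus dry), by animal (x axis). Boxes hold the middle of the genes between the quartiles with a line at the median, and whiskers reach the lowest and highest gene. The median is above 0 in 3 of 4 PR animals and 3 of 4 deer, and in HF it is above 0 in animals 1 and 3 and below 0 in animals 2 and 4.

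Set side by side, 60 of the 73 genes had a higher mean at peak lactation in both deer and PR, 22 in all 3 kinds of animal, and 38 in deer and PR but not in HF. None was lower in all 3. With most genes higher in deer and most higher in PR, a large joint count follows from the separate counts. The share of all probes in each pattern is not given here. Nor are the counts without PR dry replicate 1 or deer lactation replicates 2 and 4. These joint counts are therefore not a result about these genes. The test of the difference in lactation effect called no gene. For deer minus the mean cattle effect, 48 genes were higher and 27 lower with a median of 0.07, where 51.7% of 35431 probes were higher, and 0 were called, where 0% of probes were. In Cy5 alone the direction turned, with a median of -0.09 and 24 of 75 genes higher. At an unadjusted p under 0.05, 5 were higher and 0 lower, where 4.6% of probes were higher and 3.8% lower. For HF minus PR, 10 were higher and 65 lower with a median of -0.19, where 44.2% of 33478 probes were higher, and 0 were called, where 0% of probes were. At an unadjusted p under 0.05, 3 genes were lower and 0 higher, where 1.66% of probes were lower and 1.3% higher. Without PR dry replicate 1 the median was -0.09 and 19 genes were higher.

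Markers of blood cell types moved between the states too. For peak lactation minus dry period, the median of 5 neutrophil markers was -0.67 in deer, 1.21 in HF and 0.60 in PR. For 4 monocyte markers it was -0.24, 0.54 and 0.34 in the same order, and for 4 erythroid markers -1.37, 0.33 and -0.34. The 4 B cell markers had medians of -0.05, -0.47 and -0.04. None of these markers was called, and the lowest adjusted p was 0.173, for a neutrophil marker in HF. The summed neutrophil Cy5 intensity ranged from 35320 to 96270 in deer at peak lactation and from 76160 to 152300 in the dry period. In HF it ranged from 74440 to 279800 at peak lactation and from 60600 to 110700 in the dry period. In PR it ranged from 47990 to 127800 and from 38170 to 74530 in the same states. Without PR dry replicate 1 the neutrophil median in PR was 0.35, and without deer lactation replicates 2 and 4 it was -0.25 in deer. The part of cell type shares in the ribosomal protein values was not tested.

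None of the genes that work with mitochondrial ribosomes was called between the states. Mitoribosomal proteins under other symbols had median differences of 0.25 in deer, -0.08 in HF and 0.19 in PR (7 genes). Among them, DAP3, a GTP-binding protein of the small subunit, differed by 0.28 in deer (adjusted p = 0.49). Assembly and rRNA modification factors had medians of 0.21, -0.09 and 0.15 (24 genes on the array). Here DDX28, a helicase of large subunit assembly, differed by 0.25 in deer and METTL17 by -0.28 in HF. Translation factors had medians of 0.11, -0.04 and 0.11 (13 genes). In deer OXA1L, which inserts newly made proteins into the inner membrane, differed by 0.44, and the initiation factor MTIF3 by 0.50 (adjusted p = 0.454 each), while in PR the ribosome recycling factor MRRF differed by 0.31. Mitochondrial tRNA synthetases had medians of 0.16, -0.08 and 0.12 (19 genes), with HARS2 at 0.36 in deer and CARS2 at -0.27 in HF. For transcription and RNA processing genes the medians were 0.22, -0.01 and 0.23 (14 genes), and SLIRP, which binds mitochondrial messenger RNA, differed by 0.36 in PR. Regulators of mitochondrial biogenesis had medians of -0.0030, -0.02 and 0.05 (8 genes). Without PR dry replicate 1, the medians of these lists in PR were 0.0028, 0.03, 0.04, 0.05, 0.09 and 0.02 in the order given, and MRRF differed by 0.23 and SLIRP by 0.32. Without deer lactation replicates 2 and 4 the deer medians were 0.13, 0.14, 0.22, 0.03, 0.12 and -0.09. There DAP3 differed by 0.05, DDX28 by 0.21, OXA1L by 0.13, MTIF3 by 0.21 and HARS2 by 0.38.

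Complex I subunit genes had median differences of 0.17 in deer, -0.01 in HF and 0.39 in PR, and those of complexes II to V had 0.15, 0.03 and 0.37. Cytosolic ribosomal protein genes had 0.17, -0.11 and 0.25. In PR, 36 of 37 complex I genes, 44 of 45 genes of complexes II to V and 75 of 79 cytosolic ribosomal protein genes were higher at peak lactation. The direction seen for the mitochondrial ribosome was thus shared by these lists. On PR dry replicate 1 the complex I median was -1.05 and the cytosolic ribosomal protein median -0.59, beside -0.38 for the mitochondrial ribosomal proteins. Without that array the PR medians were 0.12 for complex I, 0.12 for complexes II to V and 0.12 for cytosolic ribosomal proteins, with 34 of 37, 36 of 45 and 69 of 79 genes higher, beside 0.08 and 58 of 75 for the mitochondrial ribosomal proteins.

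**Figure D4:**
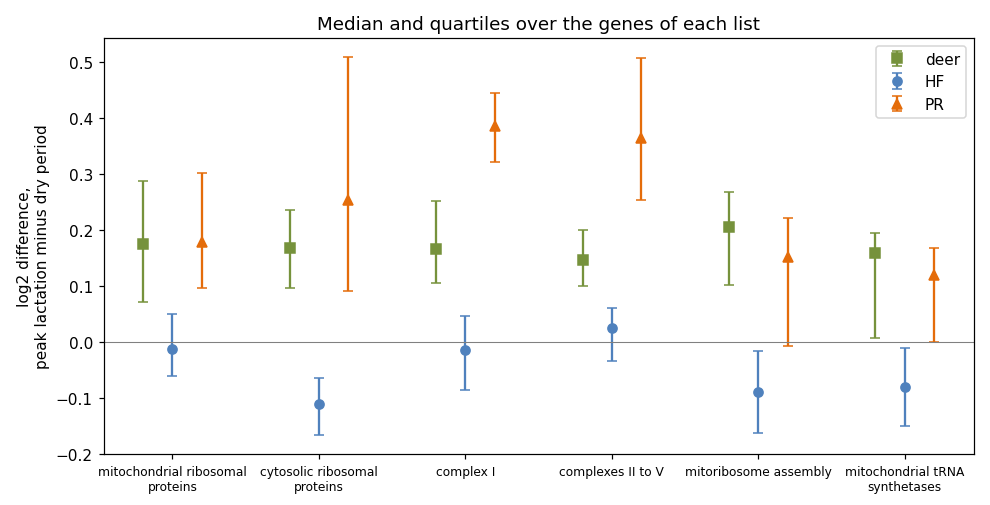
Median over the genes of each list of the log2 difference of peak lactation minus dry period (y axis), in deer, HF and PR, with bars from the lower to the upper quartile of genes. Deer and PR medians are above 0 in all 6 lists, and HF medians lie between -0.11 and 0.03.

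Between the breeds in the dry period, 3 genes were higher in HF than in PR and 0 were lower, where 2.62% of 32924 probes were called and 2.32% were called higher. The 3 were MRPS31, MRPS27 and MRPL20. HF and PR arrays lay on separate slides, except that PR dry replicate 2 shared the slide of HF animal 4. Breed and slide can thus hardly be told apart in either state. Of the 75 genes, 58 had a higher mean in HF, where 51.7% of probes did, with a median difference of 0.23 against 0.01 over all probes. At an unadjusted p under 0.05, 27 were higher and 0 lower, where 14.9% of probes were higher and 6.69% lower. The groups of 7 genes did not overlap between the breeds, all higher in HF, where 6.05% of probes did not on that side. Without PR dry replicate 1, 1 gene was called, 54 were higher and the median was 0.15. The share of all probes called in that rerun is not given here.

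MRPS31 is a small subunit protein of mitochondria only, and its probe lies at chr12:21880238-21880297 on the plus strand. In the dry period it read 0.47, 0.62, 0.32 and 0.36 in HF, against -0.21, 0.11, -0.25 and -0.31 in PR. At peak lactation it read 0.42, 0.17, 0.42 and 0.20 in HF, against -0.24, -0.15, -0.09 and -0.14 in PR. The breeds did not overlap in either state. The difference was 0.61 in the dry period (SE 0.12, adjusted p = 0.0243; 0.59 and adjusted p = 0.0493 without PR dry replicate 1) and 0.46 at peak lactation (adjusted p = 0.103). It rested on 1 of the gene's 3 probes: the other probes differed by 0.10 and 0.03 between the breeds in the dry period. The call was lost on leaving out HF dry replicate 2 or 3 or PR dry replicate 3 or 4, where the adjusted p was 0.106, 0.0533, 0.0575 and 0.0769.

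MRPS27 read 0.26, 0.45, 0.32 and 0.16 in HF in the dry period, against -1.20, -0.07, -0.25 and -0.16 in PR. The breeds did not overlap, and 1 PR array lay far below the others. The difference was 0.71 (SE 0.18, adjusted p = 0.0434), became 0.45 without PR dry replicate 1 (adjusted p = 0.0905), and was -0.03 on the gene's other probe. MRPL20, whose bacterial counterpart binds the large ribosomal RNA early in assembly, read 0.10, 0.43, 0.10 and 0.07 in HF, against -0.70, 0.12, -0.48 and -0.32 in PR. PR replicate 2 lay within the HF values. The difference was 0.52 (SE 0.14, adjusted p = 0.0469), and 0.40 without PR dry replicate 1 (adjusted p = 0.131). Its other probe gave 0.51 (adjusted p = 0.0616), the nearest match between probes among the 3 genes. For MRPS27 and MRPL20, leaving out any single array of these groups other than PR dry replicate 2 ended the call.

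At peak lactation no gene was called between the breeds, where 0% of 32949 probes were. Of the 75 genes, 45 were higher in HF and 30 lower, where 51.5% of probes were higher, with a median of 0.05. At an unadjusted p under 0.05, 2 were higher and 4 lower, where 7.12% of probes were higher and 7.13% lower. The groups of 7 genes did not overlap, and 3 of these were higher in HF: MRPS31, MRPL20 (0.35) and MRPL3 (0.26). The others were lower in HF: MRPL54 (-0.39), MRPL23 (-0.36), MRPL36 (-0.30) and MRPS36 (-0.25). Apart from MRPS31 and MRPL20, these were named after their values were seen. Over all probes, 6.65% did not overlap on the higher side and 5.29% on the lower.

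Deer differed from cattle at most of these genes, in both directions. The deer arrays lay on slides of their own, so species and slide cannot be told apart either. In the dry period 19 genes were called higher and 38 lower than the mean of both cattle breeds, where 26.2% of 35175 probes were called higher and 30.4% lower. That is 57 of 75 genes, beside 56.6% of all probes. At peak lactation 21 were higher and 37 lower, where 21.7% and 26.9% of 34265 probes were, or 58 of 75 genes beside 48.6% of all probes. The median difference was -0.31 at peak lactation and -0.41 in the dry state. Among genes with MRPL names, the 17 of mitochondria only had a median of -0.73 in the dry period, and the 29 with a bacterial counterpart a median of -0.07. Among genes with MRPS names, the 11 of mitochondria only and the 18 with a bacterial counterpart had medians of -0.60 and -0.43. These lists follow the gene names.

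MRPS36, since placed by others with the oxoglutarate dehydrogenase complex, had the lowest value. It read -4.42, -2.09, -4.38 and -3.39 in deer at peak lactation and -4.22, -4.14, -4.43 and -4.00 in the dry period, while its cattle group means were -0.03 to 0.29. The 2 highest deer values belonged to lactation replicates 2 and 4. MRPL52, a large subunit protein of mitochondria only, read -4.23, -2.02, -4.19 and -3.33 in deer at peak lactation and -4.15, -4.06, -4.20 and -4.12 in the dry period. The same 2 arrays were again the highest. The dry period differences from cattle were -4.29 for MRPS36 and -3.89 for MRPL52, and MRPL36 (-3.57), MRPS10 (-3.38), MRPL16 (-2.84) and MRPL11 (-1.73) were the others of the 6 with the smallest moderated t. MRPL3 (-3.12) and MRPL38 (-1.77) were as far below but had a moderated t nearer to 0. At peak lactation MRPS10 differed by -2.73, on a probe not well above background in deer, and by -1.17 on its other probe. MRPL38 was lower by a log2 difference of -1.70 at peak lactation.

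At the upper end stood MRPS17, the counterpart of a bacterial small subunit protein, at 1.81, 1.50, 1.98 and 1.47 in deer at peak lactation and 1.57, 1.54, 1.91 and 1.27 in the dry period. All its deer values lay above all cattle values, by 1.59 on average in the dry period (SE 0.17, adjusted p = 4.63e-08). MRPL14 (1.35), MRPL20 (1.33), MRPL39 (1.16), MRPL9 (1.07) and MRPS9 (0.70) were also higher in deer in the dry period. At peak lactation MRPL34 (0.97) took the place of MRPS9 among the 6 with the largest moderated t.

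Probes of the same gene often disagreed in this comparison. Among the 44 genes with more than 1 probe tested, the range between probes had a median of 0.72 for the dry state and 0.67 at peak lactation, where in the comparisons within or between cattle breeds and within deer it was 0.06 to 0.17. In the dry period the probes of 16 genes differed in sign, and 8 genes had probes called in both directions: MRPL12, MRPL14, MRPL23, MRPL34, MRPS6, MRPS9, MRPS21 and MRPS31. At peak lactation 18 differed in sign and 8 were called both ways. MRPL52 was at -3.89 on its brightest probe and at -0.83 on the other, and MRPL36 at -3.57 and -1.09. MRPL20 was at 1.33 and -0.27, so its direction in deer depended on the probe. Of 40 transcripts with more than 1 probe, the probe nearest the 3′ end was the lower in 28, with medians of -0.48 for the last probe and -0.06 for the first. The base composition of 138 probes was 35% to 60% G and C and had a Spearman correlation of 0.04 with the dry period difference, across probes that are not independent.

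The probe sequences below, from the array files and with coordinates on UMD 3.1, show how far apart probes of a gene can lie or how little apart. MRPL9, the counterpart of bacterial L9, is a gene whose probes agreed, at 1.07 and 1.26 in the dry period, and both are given in full in lower case. The first spans chr3:19061922-19063687, a stretch longer than the probe, and the second lies at chr3:19066903-19066962, both on the plus strand.
MRPL9 first probe: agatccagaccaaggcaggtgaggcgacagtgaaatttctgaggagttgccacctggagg
MRPL9 second probe: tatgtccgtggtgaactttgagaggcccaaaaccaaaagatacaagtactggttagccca

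MRPL12, the stalk protein that binds translation factors, had a pair of probes that share 53 bases, shown in capitals. They span chr19:51727813-51727969 and chr19:51727806-51727962 on the minus strand. They were at 1.36 and 1.46 in deer in the dry period, close together, while the gene's other 3 probes were at -0.51, -0.38 and -0.11.
MRPL12 first probe: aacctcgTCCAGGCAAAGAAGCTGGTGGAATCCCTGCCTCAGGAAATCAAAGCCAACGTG
MRPL12 second probe: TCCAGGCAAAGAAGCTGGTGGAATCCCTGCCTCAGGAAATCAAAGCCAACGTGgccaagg

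MRPL14, a large subunit protein with a bacterial counterpart, shows the opposite case. Its brightest probe, at chr23:17645583-17645642 on the minus strand, was at 1.35 in deer in the dry period, and a probe further 3′, at chr23:17644511-17644570, was at -1.44. The mean of the gene's probes was -0.044. Of the second probe the first 30 bases are given.
MRPL14 brightest probe: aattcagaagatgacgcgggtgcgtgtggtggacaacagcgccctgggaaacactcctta
MRPL14 3′ probe: cactcccattgcagaggaactaagatgctg

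MRPL18, which helps to bring 5S rRNA into mitochondria in human cells, was chosen for display after its values were seen. Its probes overlap by 37 bases, and each has 23 bases of its own, which are in capitals within the 30 bases shown. The brightest, at chr9:97499265-97499324, was at -1.45 in deer in the dry period, and the other, at chr9:97499288-97499347, at -4.10, both on the plus strand. A shift of 23 bases thus went with a log2 difference of more than 2 between probes of 1 transcript. Which deer bases differ from the cattle probes was not tested.
MRPL18 brightest probe, bases 1 to 30: GTCTTAAATCCAGGGCTGAATTCttcgttc
MRPL18 other probe, bases 31 to 60: gaaaaatTGTTGCCAATTGTAATTGACTTC

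**Figure D5:**
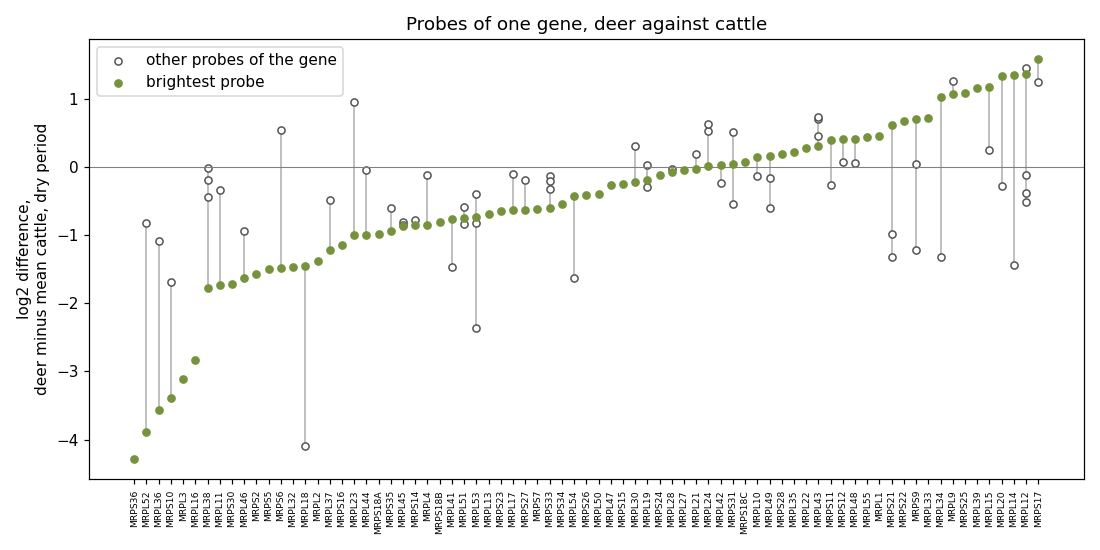
Log2 difference of deer minus mean cattle in the dry period (y axis) for each of the 75 genes, in order of the brightest probe (filled points). Open points are the gene's other probes, joined by a line. The lines of MRPL14, MRPL18 and MRPL52 are among the longest, and 16 genes have probes on both sides of 0.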

How the data were processed

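Deposited spot files from 24 two-colour arrays were read, and per the file headers they hold the intensity of each spot with local background and yes-or-no quality calls. Feature Extraction was version 10.7.3.1 per the submitters' processing notes and 10.10.1.1 per the file headers, and per the file headers the log ratio is log10 of Cy5 over Cy3. Normalized log2 ratios fill the authors' deposited tables, and the steps of that normalization are not given in the sources used here.

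Mean signals were corrected by normexp (offset 50), adjusted by loess within arrays with 1417 control spots at weight 0, and averaged by probe, with limma 3.58.1 and statmod 1.5.0 in R 4.3.3. Values of Cy5 or Cy3 alone were taken after that loess and a quantile normalization of mean intensity between arrays. Tests covered probes whose Cy5 passed the background test on 3 or more of the 4 arrays of 1 group compared. The limma model had 6 group means over 24 arrays, and p-values were adjusted by Benjamini-Hochberg over all probes tested, at 0.05. The fit was tested on simulated data. Array number limits the precision, and p-values measure the spread between these samples. Animal numbers paired the states: arrays of one animal correlated over 0.1 in 4 of 4 deer, 4 of 4 HF and 2 of 4 PR. In PR animals 1 and 2 the correlation was 0.02 and 0.09. Both arrays of each HF animal, and of PR animals 1 and 4, shared a slide. Animal and slide cannot be told apart in those correlations.

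Members and lists were chosen with earlier results of these data known. Genes named are those called, where at most 12, otherwise the 6 largest and 6 smallest moderated t, for lactation comparisons the 6 largest and 4 smallest, the 5 widest and 3 narrowest cattle ranges, genes whose probes differ in sign, and 2 genes for each pathway list. Alternatives covered background, normalization, channel, filter, probe choice, slide, weights, pairing and arrays left out. Exon and UTR positions were not assigned.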

Additional observations from a re-analysis of the deposited data

Results flagged for a closer look

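Single arrays stood off from the other 3 of their group for 13 of 228 sets of 4 values, in which chance gives about 1 in 20. In HF, replicate 2 read 0.21 for MRPL14 at peak lactation, and in the dry period 0.12 for MRPL9, 0.43 for MRPL20 and 0.28 for MRPL1. In PR at peak lactation, replicate 1 read -0.072 for MRPS9 and 0.42 for MRPS6. In PR in the dry period, replicate 1 read -1.20 for MRPS27, -1.18 for MRPL16 and -0.97 for MRPL36, and replicate 2 read -0.084 for MRPL10. In deer, lactation replicate 2 read -1.36 for MRPL38, lactation replicate 3 read -1.13 for MRPL17, and dry replicate 4 read -0.45 for MRPL24.

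MRPL10 was higher at peak lactation in 4 of 4 deer and lower in 4 of 4 HF animals. Its mean change was 0.35 in deer and -0.03 in HF, a difference of 0.37, and this difference was not tested by itself. It was 1 opposed case among 111 examined over 37 named genes, and MRPL10 was named for its deer values. The fall was slight in HF animal 1, from -0.043 in the dry period to -0.050, and in animal 3, from 0.071 to 0.064.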

How the results depend on the processing

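The number of genes called was within 1.5 times the reported one in 226 of 254 reruns. These include comparisons whose reported count was 0 and stayed at 0. Between breeds in the dry period it held in 6 of 25 reruns. In deer, 22 genes were called between the states with array weights, where 22.4% of all probes were and 1 lactation array had a weight of 9.28. The weight estimate stopped before its convergence tolerance. The methods' analysis of variance and Tukey's comparison without further adjustment called 2, where 1.1% of all probes were called. With array weights, 8 genes and 12.7% of all probes were called for the deer minus cattle difference in lactation effect. Between breeds in the dry period, where 3 were called, the count was 1 with Agilent's log ratio, 1 without a filter on dim probes, 32 with median centring, 12 with array weights and 6 with Tukey's comparison, where 18.2%, 15.4% and 5.34% of all probes were called. It was 0 with Cy5 alone, Cy3 alone, only these 8 arrays, the mean of a gene's probes, adjusted Tukey values, or without HF animals 2 and 3. Median centring moved the median of all probes to 0.15. Leaving out 1 array gave 0 to 18 called, the highest without PR dry replicate 2. At peak lactation, where 0 were called, scale normalization gave 2, and array weights, only the arrays compared and Tukey's comparison gave 1 each, where weights and Tukey's comparison called 2.45% and 2.93% of all probes. For the other breed reruns that called genes, the share of all probes called is not given here. Those counts are therefore not a result about these genes.

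Between deer and cattle, the Cy3 reference alone called 0 genes at peak lactation and 1 in the dry state. The reference holds no deer RNA, but its values were taken after a normalization that uses both channels. In Cy3 alone the dry values of MRPL9, MRPL16, MRPL11, MRPL52 and MRPL36 reversed, to -0.28, 0.41, 0.20, 0.38 and 0.19. At peak lactation MRPS17 and MRPS36 reversed, to -0.044 and 0.027. With the mean of all probes, MRPL14 became -0.0011 at peak lactation and -0.044 in the dry state, and MRPS9 -0.16 in the dry period. In deer, the median lactation difference was -0.10 in Cy3 alone and 0.08 in Cy5 alone.

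With the replicate block that pairs each animal's states, 0 members were called in deer, HF and PR and in both differences of effect, so the pairing changed no call. Tukey's comparison was not run for contrasts of more than 2 groups. The number of arrays limits the precision. The causes of these shifts were not tested.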
